A study of Rattus norvegicus with 4 samples.

Results

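Venular endothelial cells line the small veins that collect blood from the capillary bed, and 903 of the 40724 kept cell barcodes from irradiated and unirradiated rat esophagus had their expression pattern. A kept barcode had at least 500 unique molecular identifiers (UMIs, each counting 1 captured transcript), of which no more than 20% were mitochondrial. A barcode was called blood endothelial when it held at least 2 UMIs of the endothelial genes Cdh5, Egfl7 and Esam, no UMI of the leukocyte gene Ptprc or of the lymphatic genes Prox1, Mmrn1 and Reln, and at most 30 UMIs of Col3a1 and Dcn per 10000. Pecam1, also in that endothelial sum, did not match a feature name. A blood endothelial barcode was called venular when its UMIs of Selp and Vwf together were at least 1 and exceeded both the capillary sum (Gpihbp1, Apln, C1qtnf9 and Tcf15) and the arterial sum (Gja4, Sox17 and Podxl). Because Selp and Vwf chose the cells, their levels and the number of cells are given as descriptions, with no test.

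Male Sprague-Dawley rats aged 6 weeks received X-rays to the esophageal region, and esophageal tissue of 5 rats was combined before dissociation in each group. The 35 Gy library came from animals given 35 Gy in 1 exposure and sampled at day 7. The fractionated libraries came from animals given 7 Gy on each of 5 consecutive days and sampled at day 7 or day 14, and the control library from animals given 5 exposures of 0 Gy and sampled at day 7. The control stands for day 7 alone, so time and treatment cannot be told apart in the day 14 comparison. With 1 pooled library per group there is no spread between animals and no test is possible. All intervals are 95% intervals that cover counting error only. Those of ratios treat each UMI as an independent draw and leave out the spread between cells. They are too narrow where a few cells hold much of a gene's RNA. A difference outside its interval is one between the counts of 2 libraries, and does not say that the treatments differ.

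Leukocytes leave the blood mainly through post-capillary venules. There, P-selectin (Selp), stored with von Willebrand factor (Vwf) in Weibel-Palade bodies, and E-selectin (Sele) let leukocytes roll along the vessel wall. The integrin ligands Icam1 and Vcam1 and locally presented chemokines then arrest the cells and guide them across. Venular endothelium is also the site where histamine and other mediators open gaps between cells, and the fenestral diaphragm protein Plvap is abundant in it.

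The 4 libraries held 10468 to 12505 deposited barcodes and 59805782 to 109618791 UMIs. Barcodes left out for mitochondrial content made up 15.2% of the 35 Gy library, 16.6% of the fractionated day 7 library, 3.71% of the fractionated day 14 library and 5.49% of the control library. Pairs of libraries shared 22 to 35 kept barcode sequences, and no venular barcode was shared. The venular cells of the fractionated day 7 library were shallow, with a median of 2691 UMIs per cell, against 7892 in the 35 Gy library, 7953 in the fractionated day 14 library and 7880.5 in the control library. The venular sums also held RNA of marker genes of other cell types. Neutrophil and epithelial markers were at 2825 and 2951 CPM after 35 Gy, and erythroid markers at 2817 CPM in the control. CPM is the UMIs of the genes summed over the venular cells, per 1000000 UMIs of those cells. Nearly all of the neutrophil sum was S100a8 and S100a9 RNA, with no Cxcr2 UMI, and the source of this RNA was not tested.

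The gate found 211 venular cells in the 35 Gy library, 233 and 329 in the fractionated day 7 and day 14 libraries, and 130 in the control library. They were 2.17% (1.89 to 2.47) of kept barcodes after 35 Gy, 2.57% (2.25 to 2.91) at fractionated day 7, 3.26% (2.93 to 3.63) at fractionated day 14 and 1.10% (0.92 to 1.31) in the control. Among blood endothelial barcodes alone, the share was 22.9% (20.2 to 25.7) after 35 Gy, 23.6% (21.0 to 26.4) at fractionated day 7, 12.5% (11.2 to 13.8) at fractionated day 14 and 9.43% (7.94 to 11.1) in the control. The high venular share at day 7 stood beside few capillary cells. There were 162 capillary barcodes in the 35 Gy library and 185 at fractionated day 7, against 1170 at fractionated day 14 and 718 in the control. Fewer capillary cells and less capillary marker RNA per cell cannot be told apart here, nor can more venular cells and more Selp or Vwf RNA per cell.

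**Figure D1:**
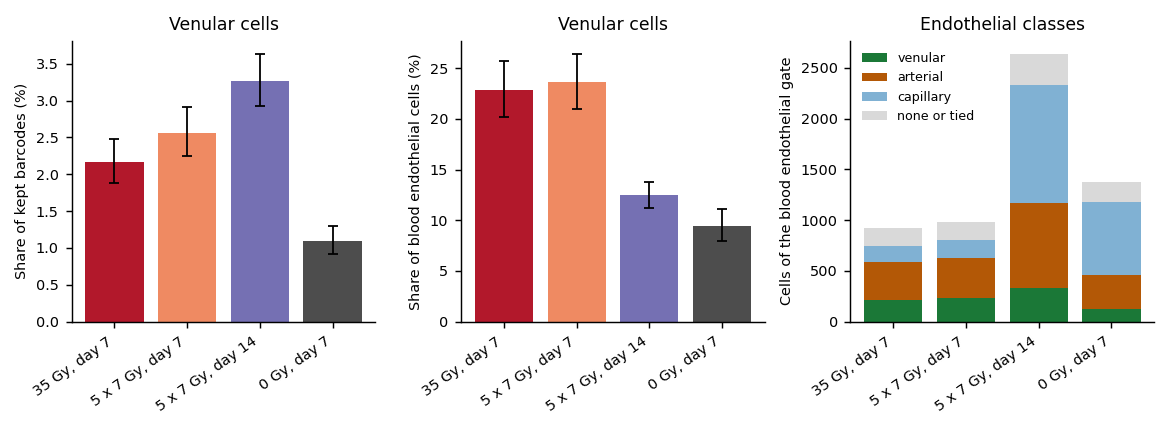
Venular endothelial cells as a percentage of kept barcodes and of blood endothelial barcodes in each of the 4 libraries, with exact 95% intervals for counting error. Of blood endothelial barcodes, the 2 day 7 irradiated libraries held 22.9% and 23.6% venular cells, against 9.43% in the control library.

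Membership rested on different genes in different libraries. Both Selp and Vwf were seen in 145 of 211 members after 35 Gy, 112 of 233 at fractionated day 7, 263 of 329 at fractionated day 14 and 109 of 130 in the control. At fractionated day 7, 102 members were called on Vwf alone. The median member held 12 Selp UMIs after 35 Gy, 1 at fractionated day 7, 4 at fractionated day 14 and 7 in the control. At the edge of the gate, 11, 25, 13 and 4 members in the same order of libraries were called on a single UMI. These held Plvap at 221, 2387, 182.9 and 2685 CPM, against 2038, 2192, 2079 and 2189 CPM in members with at least 3 UMIs. Just outside the gate, endothelial barcodes with no UMI of any venular, capillary or arterial gate gene held Plvap at 26.32, 897.2, 227.9 and 19.78 CPM. Epithelial keratins (Krt5, Krt14 and Krt15) were at 6814, 3501, 4358 and 565.2 CPM in the single-UMI members. A minimum of 3 UMIs of Selp and Vwf leaves these members out. Under it 456 log2 ratios of named genes kept their value within counting error and 11 moved. The part of the keratin RNA in the results was not tested on its own.

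The venular label was checked on marker genes that the gate did not use, although cells grouped by one gene set are no independent test of another. Plvap was at 1947 CPM in venular cells after 35 Gy, 2275 at fractionated day 7, 2041 at fractionated day 14 and 2205 in the control, higher than in capillary and arterial cells of the same library each time. Sele was between 164 and 704 CPM in venular cells of the 4 libraries, between 6.48 and 42.4 in capillary cells and between 12.7 and 63.4 in arterial cells. The venous transcription factor Nr2f2, the venous ephrin receptor Ephb4, the glycoprotein Lrg1 and the metalloprotease Tll1 were also higher in venular than in capillary and arterial cells of every library. Cxcl12, a chemokine here abundant in capillary and arterial cells, was at 57.2 to 127 CPM in venular cells, against 861 to 1579 CPM in capillary cells. Ackr1, the usual marker of post-capillary venules, did not match a feature name. Madcam1, the ligand for gut-homing lymphocytes, was at 23.2 CPM after 35 Gy, 10.9 at fractionated day 7, 4.47 at fractionated day 14 and 21.0 in the control, and at most 1.62 CPM in capillary and arterial cells.

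**Figure D2:**
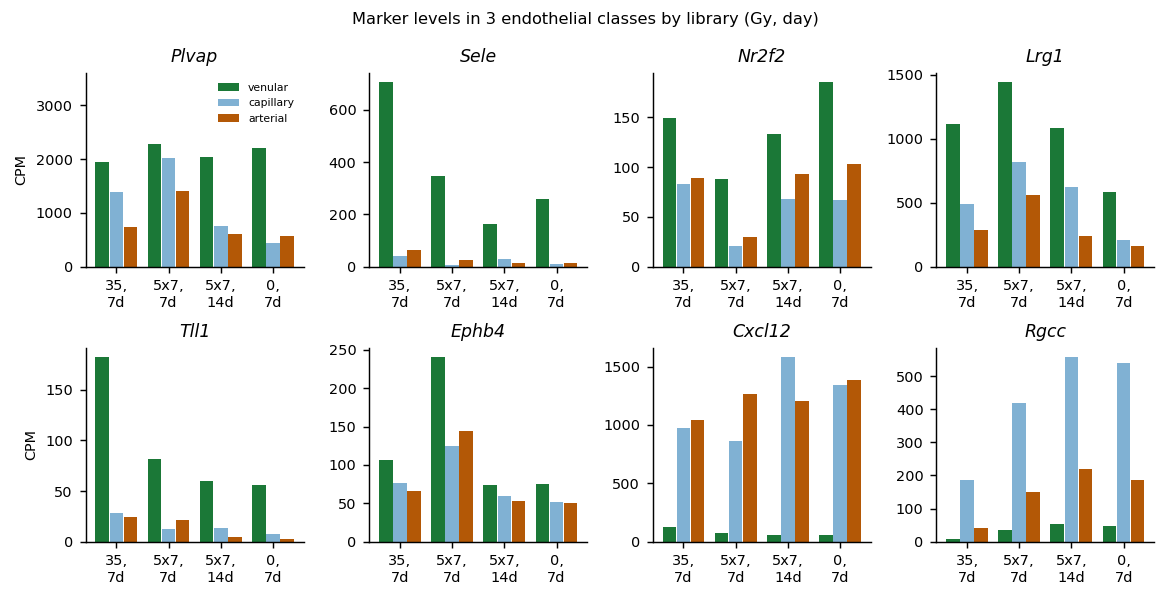
Marker genes in venular, capillary and arterial endothelial cells of each library, in CPM of summed UMIs on a linear axis. Plvap and Sele were higher in venular cells of all 4 libraries, with Sele at 164 to 704 CPM, while Cxcl12 was at 57.2 to 127 CPM there and at 861 CPM or more in the other vessel classes.

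Within the gate the venular cells after 35 Gy carried more selectin and less integrin ligand RNA than control cells. Selp, a gene of the gate, was at 2793 CPM after 35 Gy, 641 at fractionated day 7, 679 at fractionated day 14 and 1034 in the control. Vwf, also of the gate, stood highest at fractionated day 7, at 1125 CPM, against 371 after 35 Gy, 510 at fractionated day 14 and 527 in the control. Sele, which did not enter the gate, was at 704 CPM after 35 Gy, 348 at fractionated day 7, 164 at fractionated day 14 and 260 in the control. That is 2.71-fold (2.39 to 3.07) higher after 35 Gy and 1.58-fold (1.37 to 1.82) lower at fractionated day 14 than in the control. After each cell was thinned to 1000 UMIs, 28.9% (22.7 to 35.6) of venular cells held a Sele UMI after 35 Gy, against 16.4% (10.5 to 23.98) in the control. In barcodes with no endothelial UMI, which are cells of other types and hold their own transcripts as well as free RNA, the thinned share was 0.233% after 35 Gy, where the median depth was 5667 UMIs, and 0.0133% in the control, where it was 7121.5 UMIs.

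Icam1, the ligand on which neutrophils arrest, was at 187 CPM after 35 Gy, 154 at fractionated day 7, 947 at fractionated day 14 and 913 in the control. Icam1 was thus 4.88-fold (4.35 to 5.49) lower after 35 Gy and 5.93-fold (4.93 to 7.18) lower at fractionated day 7, and within 1.04-fold (0.968 to 1.11) at fractionated day 14. The low day 7 levels were not particular to venular cells. Capillary cells held Icam1 at 36.5 CPM after 35 Gy and 43.7 at fractionated day 7, against 122.5 in the control. Arterial cells held 63.4 and 30.8 CPM against 133.6 CPM, and barcodes with no endothelial UMI 36.8 and 8.57 CPM against 168.1 CPM. Vcam1, the ligand of monocytes and lymphocytes, was at 139, 102 and 228 CPM after 35 Gy, at fractionated day 7 and at fractionated day 14, and at 399 CPM in the control. All 3 irradiated libraries stood below the control for Vcam1, by 2.87-fold (2.48 to 3.33) after 35 Gy. In the same order capillary cells held Vcam1 at 15.8, 4.86 and 36.2 CPM, against 30.4 CPM in the control. Arterial cells held 8.325, 22.3 and 31.1 CPM against 32.6 CPM, and barcodes with no endothelial UMI 5.52, 0.711 and 69.7 CPM against 54.4 CPM. Jam3, a junctional molecule used in transmigration, went the other way, at 62.1, 83.7 and 124 CPM in the same irradiated libraries and 36.2 CPM in the control, and was 3.42-fold (2.49 to 4.80) higher at fractionated day 14. Of 16 measured adhesion genes outside the gate, 3 were higher by 2-fold or more and 3 were lower by as much after 35 Gy, beside 14.3% and 10.5% of all 5991 genes measured in venular cells in that comparison. A gene counted as measured if both libraries together held 50 or more UMIs of it. At fractionated day 7 the counts were 2 higher and 3 lower of 13, beside 12% and 11.3% of 4680 genes, and at fractionated day 14 they were 2 higher and 0 lower of 15, beside 5.52% and 1.93% of 6780 genes. All 3 comparisons share the control library.

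**Figure D3:**
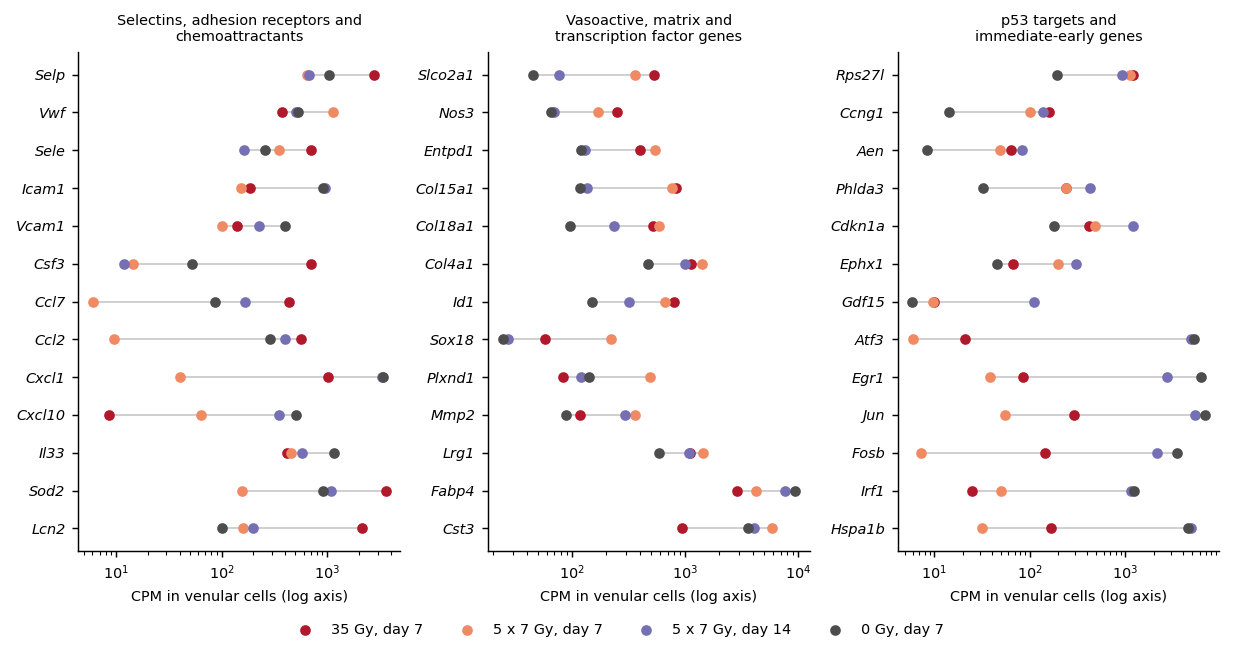
Levels of adhesion, chemoattractant, vasoactive, matrix, damage response and immediate-early genes in venular cells of the 4 libraries, in CPM on a log axis. Points are libraries, and a grey line joins the lowest and the highest library for each gene. Intervals are not drawn. Sele and Csf3 were highest in the 35 Gy library, at 704 and 699 CPM, while Icam1 was at 187 and 154 CPM in the day 7 irradiated libraries and at 913 CPM in the control.

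Windows at annotated gene starts are shown for Cxcl1, Icam1 and Vcam1, which were lower together at day 7, and for Sele, which was not. Each runs from 250 bases before to 50 bases after the annotated start in RefSeq on the build GRCr8, and is printed 5′ to 3′ on the gene's strand. Capitals mark matches on either strand to GGG, any 5 bases and CC, the ends of the binding consensus of NF-kB, a transcription factor of inflammatory endothelium. The letters were present in 47.27% of all 33469 windows of that length.
Cxcl1, chr14:17479272-17479571, minus strand: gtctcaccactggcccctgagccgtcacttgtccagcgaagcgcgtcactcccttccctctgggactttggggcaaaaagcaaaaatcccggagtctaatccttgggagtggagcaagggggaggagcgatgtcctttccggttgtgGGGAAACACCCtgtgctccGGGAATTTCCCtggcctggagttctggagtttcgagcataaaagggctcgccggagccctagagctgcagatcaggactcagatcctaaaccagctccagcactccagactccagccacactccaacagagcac
Icam1, chr8:27829595-27829894, plus strand: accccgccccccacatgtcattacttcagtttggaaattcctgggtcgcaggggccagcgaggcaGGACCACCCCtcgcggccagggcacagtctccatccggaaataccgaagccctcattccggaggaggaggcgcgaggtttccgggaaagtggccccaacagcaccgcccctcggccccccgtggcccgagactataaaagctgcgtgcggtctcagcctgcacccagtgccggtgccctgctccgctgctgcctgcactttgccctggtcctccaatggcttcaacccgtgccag
Vcam1, chr2:206742734-206743033, minus strand: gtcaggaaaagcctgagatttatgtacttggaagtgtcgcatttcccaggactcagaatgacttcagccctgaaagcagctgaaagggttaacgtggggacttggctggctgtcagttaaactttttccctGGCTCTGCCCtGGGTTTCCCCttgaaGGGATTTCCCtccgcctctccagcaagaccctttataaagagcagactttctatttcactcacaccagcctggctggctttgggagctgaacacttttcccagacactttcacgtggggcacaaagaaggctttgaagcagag
Sele, chr13:78936264-78936563, plus strand: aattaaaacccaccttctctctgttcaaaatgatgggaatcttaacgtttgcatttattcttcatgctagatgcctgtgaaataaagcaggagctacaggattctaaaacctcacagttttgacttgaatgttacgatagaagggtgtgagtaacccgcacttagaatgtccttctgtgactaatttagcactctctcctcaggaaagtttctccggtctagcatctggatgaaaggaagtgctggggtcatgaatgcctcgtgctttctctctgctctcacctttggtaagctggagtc
Cxcl1 had matches from 103 and from 84 bases before its start, each overlapped by a match on the other strand. Vcam1 had matches from 119, 108 and 93 bases before its start, Icam1 had 1 match, and the Sele window had none. The Sele start is annotated at the letters ATG, a start codon, so its window may not hold the promoter. Its lack of a match is therefore not read as a difference from the other genes. A match describes letters only, and 12 of the 14 adhesion and chemokine genes found in the table had one. Entries for Selp, Csf3, Ccl2, Il33, Jam3 and Icam2 were not matched.

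Among signals to leukocytes, venular cells after 35 Gy were high in the neutrophil growth factor gene Csf3 and the monocyte chemokines Ccl7 and Ccl2, and low in the interferon-induced T cell chemokines. Csf3 was at 699 CPM after 35 Gy, 14.6 at fractionated day 7, 11.8 at fractionated day 14 and 52.2 in the control. It was 13.4-fold (10.4 to 17.6) higher after 35 Gy than in the control, and seen in 23.9% of thinned venular cells after 35 Gy, 0.881% at fractionated day 7, 1.23% at fractionated day 14 and 3.91% in the control. In the 35 Gy library Csf3 stood at 105 CPM in capillary cells, 57.5 CPM in arterial cells and 15.1 CPM in barcodes with no endothelial UMI. Ccl7 was at 430 CPM after 35 Gy, 6.06 at fractionated day 7, 168 at fractionated day 14 and 87.5 in the control. Ccl2 was at 563, 9.70 and 396 CPM in the irradiated libraries in that order and 288 CPM in the control, but barcodes with no endothelial UMI held 200, 1.21 and 836 CPM and, in the control, 498 CPM. The level in those other barcodes was therefore above the venular level for Ccl2 at fractionated day 14 and in the control, and below it after 35 Gy and at fractionated day 7. For Ccl7 the other barcodes held 148, 0.237 and 184 CPM in the irradiated libraries and 69.7 CPM in the control, above the venular level at fractionated day 14. Where the venular level is the lower one, it is not read as venular expression.

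Cxcl1, a neutrophil chemokine, was at 1027 CPM after 35 Gy, 40.0 at fractionated day 7, 3278 at fractionated day 14 and 3342 in the control. It was 3.25-fold (3.09 to 3.43) lower after 35 Gy and 83.5-fold (59.4 to 121) lower at fractionated day 7, and at fractionated day 14 it lay within 1.02-fold (0.983 to 1.06) of the control. The CXCR3 ligands Cxcl10 and Cxcl9 were lowest after 35 Gy. Cxcl10 was at 8.54 CPM there, 64.3 at fractionated day 7, 348 at fractionated day 14 and 508 in the control, and Cxcl9 at 4.27, 20.6, 118 and 139 CPM. The alarmin Il33, a nuclear protein of human venular endothelium, was at 417 CPM after 35 Gy, 458 at fractionated day 7, 573 at fractionated day 14 and 1154 in the control. Il33 was the member of this group that was lower by at least 2-fold in all 3 irradiated libraries, by 2.77-fold (2.54 to 3.01) after 35 Gy, 2.52-fold (2.25 to 2.83) at fractionated day 7 and 2.01-fold (1.88 to 2.16) at fractionated day 14. Without cells high in epithelial, mural or myeloid genes, the log2 ratio of Il33 at day 14 was -0.93, short of 2-fold. Il6 was at 193, 15.8 and 94.2 CPM in the irradiated libraries and 74.9 CPM in the control, and the transmembrane chemokine Cxcl16 at 213, 57.0 and 103 CPM against 54.7 CPM. Of the 13 measured chemoattractant genes, 6 (46.2%) were at least 2-fold higher and 4 (30.8%) lower after 35 Gy, and 2 (15.4%) higher and 8 (61.5%) lower at fractionated day 7. At fractionated day 14, 4 (26.7%) were higher and 2 (13.3%) lower of 15. Over all measured genes, the shares higher and lower were 14.3% and 10.5%, 12% and 11.3%, and 5.52% and 1.93% in that order. The median log2 ratios were 0.97, -1.84 and 0.33, beside 0.17, 0.08 and 0.09 over all measured genes.

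The NF-kB feedback genes separated within the 35 Gy library. Sod2, the mitochondrial superoxide dismutase, was at 3560 CPM after 35 Gy, 156 at fractionated day 7, 1078 at fractionated day 14 and 915 in the control, that is 3.89-fold (3.65 to 4.15) higher after 35 Gy. Nfkbia, the inhibitor of NF-kB, was at 620, 181 and 2190 CPM in the irradiated libraries and 2224 CPM in the control, 3.58-fold (3.35 to 3.83) lower after 35 Gy. Its relative Nfkbiz was at 54.1, 13.3 and 498 CPM, against 710 CPM in the control. Of 12 measured genes in the list, 2 (16.7%) were at least 2-fold higher and 4 (33.3%) lower after 35 Gy, beside 14.3% and 10.5% of all genes. In the fractionated day 7 cells 1 (9.09%) was higher and 7 (63.6%) lower of 11, beside 12% and 11.3%, and at fractionated day 14, 0 were higher and 2 (13.3%) lower of 15, beside 5.52% and 1.93%. Immediate-early stress genes were low in the same day 7 irradiated libraries, and their part in the low Nfkbia, Icam1 and Cxcl1 levels was not tested.

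Among genes for prostanoids and vessel tone, Slco2a1, Nos3, Calcrl and Ramp3 were high at day 7 under both schedules. Slco2a1, the prostaglandin uptake transporter, was at 526 CPM after 35 Gy, 358 at fractionated day 7, 77.3 at fractionated day 14 and 45.4 in the control. It was 11.6-fold (8.82 to 15.5) higher after 35 Gy and 7.87-fold (5.87 to 10.7) higher at fractionated day 7. In capillary cells Slco2a1 was at 138, 128 and 14.0 CPM in the irradiated libraries and 3.22 CPM in the control, so the venular level was the higher one in every library. Nos3, the endothelial nitric oxide synthase, was at 252 CPM after 35 Gy, 170 at fractionated day 7, 69.0 at fractionated day 14 and 64.8 in the control, a level 3.89-fold (3.06 to 5.00) and 2.62-fold (1.97 to 3.51) higher at day 7 after 35 Gy and after fractions. Calcrl, the receptor of adrenomedullin and CGRP, was at 317, 324 and 158 CPM against 133 CPM in the control. Ramp3, which gives Calcrl its ligand preference, was at 44.1, 33.9 and 4.79 CPM and had no UMI in the control. With the control set to a floor of 3 UMIs it was 17.5-fold higher after 35 Gy, which is not a lower bound. The UDP receptor P2ry6 was at 108, 19.4 and 7.66 CPM in the irradiated libraries and, on 1 UMI, 0.841 CPM in the control, a ratio after 35 Gy of 128 (22.8 to 5099). Ptges, the terminal prostaglandin E synthase, was at 65.5 CPM after 35 Gy and, on 2 UMIs, 1.68 CPM in the control, beside 61.4 and 34.5 CPM in barcodes with no endothelial UMI. Of 16 measured genes, 9 (56.2%) were at least 2-fold higher and 1 (6.25%) lower after 35 Gy, beside 14.3% and 10.5% of all genes. Of 9 at fractionated day 7, 4 (44.4%) were higher and 2 (22.2%) lower, beside 12% and 11.3%, and of 13 at fractionated day 14, 2 (15.4%) were higher and 0 lower, beside 5.52% and 1.93%. The median log2 ratios were 1.14, 0.36 and 0.29, beside 0.17, 0.08 and 0.09 over all genes.

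Of 14 measured genes of haemostasis and fibrinolysis outside the gate, 2 (14.3%) were at least 2-fold higher and 1 (7.14%) lower after 35 Gy, with a median log2 ratio of -0.43, beside 14.3% and 10.5% of all genes. The counts at fractionated day 7 were 1 (7.69%) and 3 (23.1%) of 13, with a median of 0.05, beside 12% and 11.3%. Those at fractionated day 14 were 2 (10.5%) and 0 of 19, with a median of 0.27, beside 5.52% and 1.93%. The medians over all genes were 0.17, 0.08 and 0.09. Some single genes of the vessel lumen and of scavenging differed more. Olr1, the receptor for oxidised lipoprotein, was at 84.4 CPM after 35 Gy, 2.42 at fractionated day 7, 7.66 at fractionated day 14 and 0 in the control, with 178 UMIs after 35 Gy spread over 11.4% of venular cells. With the control set to the floor of 3 UMIs the ratio is 33.45-fold, which is not a lower bound. No Olr1 UMI was seen in capillary or arterial cells of the 35 Gy library. Lcn2, which binds bacterial iron carriers, was at 2146, 160 and 196 CPM in the irradiated libraries and 101 CPM in the control, 21.3-fold (17.7 to 25.7) higher after 35 Gy. Lcn2 was not restricted to venules, standing at 1029 CPM in capillary and 1024 CPM in arterial cells after 35 Gy. Prg4, the mucin-like lubricin, was at 246, 12.1 and 7.02 CPM against 5.89 CPM, in 16.6% of venular cells after 35 Gy. Entpd1, which degrades extracellular ATP, was high at day 7 under both schedules, at 396 CPM after 35 Gy and 544 at fractionated day 7, against 131 at fractionated day 14 and 119 in the control. Tfpi2, an inhibitor of plasmin, was low in all irradiated libraries, at 49.8 CPM after 35 Gy, 7.27 at fractionated day 7 and 263 at fractionated day 14, against 496 CPM in the control.

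Some basement membrane genes, among them Col15a1, Col18a1, Col4a1 and Vwa1, were high at day 7 under both schedules, while others were low. Col15a1, a collagen of the vascular basement membrane, was at 838 CPM after 35 Gy, 764 at fractionated day 7, 137 at fractionated day 14 and 119 in the control, 7.07-fold (5.95 to 8.45) higher after 35 Gy and 6.44-fold (5.36 to 7.79) higher at fractionated day 7. The log2 ratio of 35 Gy to control for Col15a1 was 2.82 (2.57 to 3.08) in venular cells, 0.29 (0.10 to 0.47) in capillary cells and 1.34 (1.09 to 1.59) in arterial cells, and the difference between classes was not tested. Barcodes with no endothelial UMI held Col15a1 at 21.4, 10.9 and 286 CPM in the irradiated libraries and 264 CPM in the control, so the venular level was above theirs at day 7 under both schedules, and below theirs at fractionated day 14 and in the control. Col18a1, the source of endostatin, was at 517, 588 and 234 CPM against 96.7 CPM, and Col4a1, a core chain of the membrane, at 1128, 1420 and 999 CPM against 469 CPM. Vwa1, a matrix protein of basement membranes, was at 456, 239 and 77.9 CPM against 24.4 CPM. Sparcl1, a matricellular protein, was low in all irradiated libraries and lowest after 35 Gy, at 107, 382 and 357 CPM against 635 CPM. In this list 6 genes (25%) were at least 2-fold higher and 4 (16.7%) lower of 24 after 35 Gy, beside 14.3% and 10.5% of all genes, and 7 (31.8%) and 4 (18.2%) of 22 at fractionated day 7, beside 12% and 11.3%. At fractionated day 14 it was 8 (29.6%) and 0 of 27, beside 5.52% and 1.93%. The median log2 ratios were 0.76, 0.14 and 0.32, beside 0.17, 0.08 and 0.09 over all genes. Summed over the venular cells, 5 fibroblast markers were at 194, 47.3 and 748 CPM in the irradiated libraries and 933 CPM in the control. Col3a1 and Dcn, which the gate limits, are among these markers, so the sum is a description. The part of fibroblast RNA in the Col15a1 levels was not tested.

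The BMP target Id1 was at 801 CPM after 35 Gy, 661 at fractionated day 7, 319 at fractionated day 14 and 151 in the control, while the ligand Bmp4 was at 115, 124 and 346 CPM against 475 CPM. Kdr, the main VEGF receptor, was at 252 CPM after 35 Gy, 148 at fractionated day 7, 89.4 at fractionated day 14 and 86.6 in the control. In the same libraries capillary cells held Kdr at 307, 427 and 349 CPM, against 318 CPM in the control, and the log2 ratio of 35 Gy to control was 1.54 (1.24 to 1.86) in venular cells and -0.05 (-0.24 to 0.13) in capillary cells. The difference between these ratios has no replicate check and was not tested. Ccn2, the connective tissue growth factor, was highest at fractionated day 14, at 230, 314 and 488 CPM against 138 CPM, and 3.54-fold (3.01 to 4.18) higher at day 14 than in the control. Fabp4, the fatty acid binding protein of small vessels, was lower in the irradiated libraries, at 2846 CPM after 35 Gy, 4258 at fractionated day 7, 7637 at fractionated day 14 and 9370 in the control. Klf4, a shear stress factor that is also an early response gene, was at 166, 144 and 1017 CPM against 1428 CPM.

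Another set of genes set the fractionated day 7 cells apart from both the 35 Gy and the control cells. Sox18, a factor of vessel development, was at 221 CPM at fractionated day 7, against 57.9 after 35 Gy, 27.1 at fractionated day 14 and 24.4 in the control, 3.81-fold (3.01 to 4.84) higher than after 35 Gy and 9.04-fold (6.09 to 13.9) higher than in the control. The semaphorin receptor Plxnd1 was at 491 CPM, against 83.0, 120 and 141 CPM in the same libraries, Ephb4 at 240 CPM against 106, 74.1 and 74.9 CPM, and the angiopoietin co-receptor Tie1 at 343 CPM against 123, 150 and 114 CPM. Ephb4 was highest at fractionated day 7 in the other vessel classes too. Capillary cells held it at 124.7 CPM, against 77.0, 59.0 and 51.2 CPM in the same libraries. Arterial cells held it at 143.8 CPM, against 66.6, 53.3 and 50.5 CPM. The protease inhibitor Cst3 and the death ligand Tnfsf10 were low after 35 Gy. Cst3 was at 5872 CPM at fractionated day 7 and 936 CPM after 35 Gy, 6.28-fold (5.95 to 6.61) apart, with 4052 CPM at fractionated day 14 and 3575 CPM in the control. Tnfsf10 was at 149 CPM at fractionated day 7 and 18.5 CPM after 35 Gy, with 70.2 CPM at fractionated day 14 and 128 CPM in the control. Lower at fractionated day 7 than after 35 Gy were Ccl7, Ccl2 and Csf3, by 70.9-fold (30.3 to 219), 58.1-fold (29.4 to 135) and 48.0-fold (27.4 to 93.1). Of 5805 measured genes, 9.68% were at least 2-fold higher and 12% lower at fractionated day 7 than after 35 Gy. The adhesion list had 0 higher and 2 lower of 15 there, the chemoattractants 2 and 7 of 13, and the junction and permeability genes 6 and 2 of 23.

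At fractionated day 14 fewer genes stood apart from the control, and genes induced by p53, the factor that answers DNA damage, were among those with the largest folds. Cdkn1a, the cell cycle inhibitor p21, was at 417 CPM after 35 Gy, 486 at fractionated day 7, 1198 at fractionated day 14 and 178 in the control, 6.72-fold (5.84 to 7.75) higher at day 14. Gdf15, a secreted stress cytokine, was at 9.96 CPM after 35 Gy, 9.70 at fractionated day 7, 110 at fractionated day 14 and 5.89 in the control. Phlda3, which restrains AKT, was at 242, 243 and 431 CPM against 32.8 CPM, Ccng1, a cyclin G, at 159, 101 and 137 CPM against 14.3 CPM, and the small ribosomal protein relative Rps27l at 1196, 1128 and 922 CPM against 195 CPM. The nuclease gene Aen was at 64.5, 48.5 and 83.3 CPM against 8.41 CPM. The levels of these 4 genes were higher than the control in all 3 irradiated libraries, whereas the day 7 intervals of Gdf15 included 1, with ratios to the control of 1.69 (0.693 to 4.71) after 35 Gy and 1.65 (0.522 to 5.34) at fractionated day 7. Ephx1, an epoxide hydrolase, was at 66.4, 199 and 309 CPM against 45.4 CPM, and Gtse1, which binds p53, at 12.8, 30.3 and 29.7 CPM with no UMI in the control. Fam111a, a nuclear protease, was at 92.5, 170 and 311 CPM against 31.1 CPM.

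Of the p53 targets measured, 8 (33.3%) were at least 2-fold higher and 7 (29.2%) lower of 24 after 35 Gy, beside 14.3% and 10.5% of all genes. The counts at fractionated day 7 were 9 (45%) and 3 (15%) of 20, beside 12% and 11.3%, and at fractionated day 14 it was 10 (35.7%) and 1 (3.57%) of 28, beside 5.52% and 1.93%. The low ones at day 7 included Btg2, at 283, 178 and 3614 CPM in the irradiated libraries and 3604 CPM in the control, and Gadd45a and Plk3, which are also early response genes. Gadd45a was 6.06-fold (4.85 to 7.62) lower and Plk3 5.70-fold (4.38 to 7.51) lower after 35 Gy. Barcodes with no endothelial UMI held Ccng1 at 118, 125 and 184 CPM in the irradiated libraries and 54.1 CPM in the control, above the venular level at fractionated day 7 and day 14 and in the control. They held Phlda3 at 229, 174 and 465 CPM and, in the control, 190 CPM, above the venular level at fractionated day 14 and in the control. The part of other cells' RNA and of free RNA in their venular levels was not tested.

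Lower at fractionated day 14 than in the control were Csf3, by 4.42-fold (2.89 to 6.83), and Zfp36l1, which destabilises messenger RNA. Zfp36l1 was at 288 CPM after 35 Gy, 502 at fractionated day 7, 1275 at fractionated day 14 and 3281 in the control. Dlc1 was at 113, 137 and 208 CPM against 544 CPM, the orphan nuclear receptor gene Nr4a3 at 2.37, 1.21 and 14.7 CPM against 59.7 CPM, and Tmem45b at 42.7, 215 and 121 CPM against 401 CPM. Mid1ip1, a regulator of lipid synthesis, was 2.99-fold (2.50 to 3.56) lower at day 14. Of interferon-stimulated genes, 2 (7.14%) were at least 2-fold higher and 9 (32.1%) lower of 28 after 35 Gy, beside 14.3% and 10.5% of all genes. The fractionated day 7 counts were 1 (4%) and 4 (16%) of 25, beside 12% and 11.3%, and at fractionated day 14 it was 9 (24.3%) and 2 (5.41%) of 37, beside 5.52% and 1.93%. The antiviral Oas1a was 3.20-fold (1.83 to 6.03) and Mx2 3.64-fold (2.14 to 6.68) higher at day 14 than in the control. Antigen presentation genes had 4 (22.2%) higher and 0 lower of 18 at fractionated day 14, among them the class I gene RT1-CE5, 3.40-fold (2.76 to 4.23) higher, whose reads may be shared with related class I copies. Complement and acute phase genes had 5 (35.7%) higher and 0 lower of 14 after 35 Gy, and 3 (25%) and 0 of 12 at fractionated day 14.

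**Figure D4:**
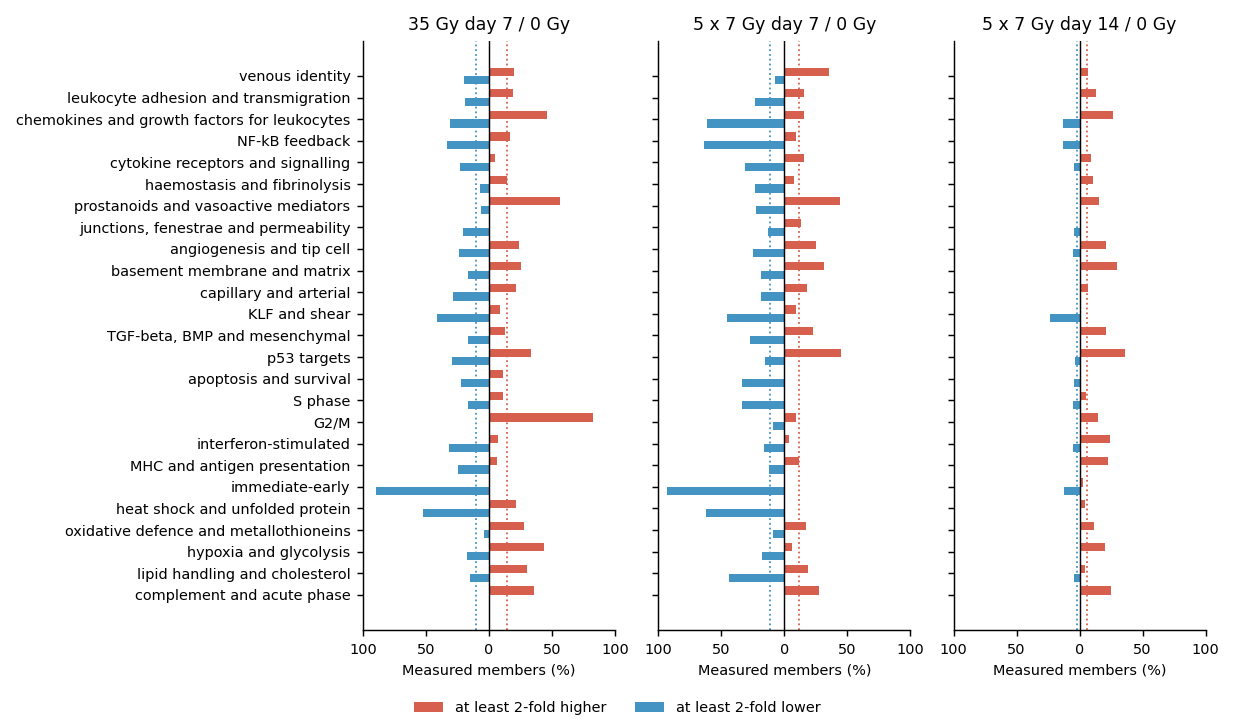
Percentage of the measured members of each gene list at least 2-fold higher or lower in venular cells, for the 3 irradiated libraries against the control library. Dotted lines mark the same percentages over all measured genes. Of immediate-early genes, 89.7% were lower after 35 Gy, 92.9% at fractionated day 7 and 12.1% at fractionated day 14. Their median log2 ratios, not drawn, were -3.37, -4.35 and -0.32 in that order.

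Between the fractionated libraries, day 14 cells were closer to the control in stress and chemokine genes and lower in the vessel genes that were high at day 7. Of 6695 measured genes, 12.1% were at least 2-fold higher and 9.56% lower at day 14 than at day 7. Sox18 was 8.13-fold (6.25 to 10.7) lower at day 14, and Apcdd1, a Wnt antagonist, 11.9-fold (6.42 to 23.6) lower. Col15a1 was 5.58-fold (4.92 to 6.32), Slco2a1 4.63-fold (3.89 to 5.51) and Entpd1 4.16-fold (3.63 to 4.77) lower at day 14. Cxcl1 was 81.9-fold (58.3 to 119) higher at day 14 and the damage response gene Gadd45b 84.1-fold (51.7 to 147) higher. Of the chemoattractants, 8 of 14 were at least 2-fold higher and 0 lower at day 14, and of the immediate-early genes, 27 of 29 were higher and 0 lower.

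Immediate-early genes, the transcription factors that cells switch on within minutes of handling or injury, separated the day 7 irradiated libraries from the others in venular and in non-endothelial barcodes alike. Atf3 was at 20.9 CPM after 35 Gy, 6.06 at fractionated day 7, 4841 at fractionated day 14 and 5286 in the control, and in barcodes with no endothelial UMI at 9.51, 1.23, 4928 and 4667 CPM. Egr1 was at 85.8, 38.8 and 2724 CPM against 6214 CPM in venular cells, Jun at 290, 54.6 and 5441 CPM against 6807 CPM, and Fosb at 146, 7.27 and 2167 CPM against 3526 CPM. Among 29 measured members, 26 (89.7%) were at least 2-fold lower and 0 higher after 35 Gy, beside 10.5% and 14.3% of all genes. The fractionated day 7 counts were 26 (92.9%) lower and 0 higher of 28, beside 11.3% and 12%. At fractionated day 14, 4 (12.1%) of 33 were lower and 1 (3.03%) higher, beside 1.93% and 5.52%. Heat shock genes went with them, with the chaperone Hspa1b at 168, 31.5 and 4855 CPM against 4568 CPM, and the interferon factor Irf1 at 25.1, 49.7 and 1146 CPM against 1227 CPM. The GTPase Gem was 49.9-fold (25.9 to 110) lower after 35 Gy. The control and both low libraries were taken at day 7, so the day of sampling does not separate them. Each treatment was 1 pool of tissue, so treatment and the handling of a pool cannot be told apart for these genes, nor for Icam1, Cxcl1, Nfkbia, Klf4 and Btg2, which were low in the same libraries.

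Of 23 measured hypoxia and glycolysis genes, 10 (43.5%) were at least 2-fold higher and 4 (17.4%) lower after 35 Gy, beside 14.3% and 10.5% of all genes. The median log2 ratio was 0.82, but 0.30 without cells high in epithelial, mural or myeloid genes and 0.22 over the 16 genes at least as high in venular cells as in barcodes with no endothelial UMI, beside 0.17 over all genes. Hif1a, the oxygen-regulated transcription factor, was at 509 CPM after 35 Gy, 155 at fractionated day 7, 109 at fractionated day 14 and 89.2 in the control, 5.71-fold (4.67 to 7.04) higher after 35 Gy. The glycolytic enolase Eno1 was at 832, 390 and 317 CPM against 203 CPM, and the metallothionein Mt2A, which binds zinc and copper, at 2208, 428 and 1076 CPM against 383 CPM. At fractionated day 7 the list had 1 (5.88%) higher and 3 (17.6%) lower of 17, beside 12% and 11.3% of all genes. The fractionated day 14 counts were 5 (20%) higher and 0 lower of 25, beside 5.52% and 1.93%.

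Against the control, 854 genes were at least 2-fold higher and 631 lower in venular cells after 35 Gy, so 57.5% of genes past the threshold were higher, and with median-of-ratios scaling in place of CPM this share was 44.9%. At fractionated day 7 it was 51.6% with CPM and 36.6% with median-of-ratios scaling, and between fractionated day 14 and day 7 it was 55.9% and 67.9%. Scaling by median of ratios moved every log2 ratio by -0.16 after 35 Gy, -0.18 at fractionated day 7 and -0.05 at fractionated day 14 against the control. The folds given for single genes are ratios of CPM.

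In the 35 Gy library the RNA of mitosis genes was held mostly by a few very large barcodes. Of 34 measured G2/M genes, 28 (82.4%) were at least 2-fold higher and 0 lower after 35 Gy, with a median log2 ratio of 1.62. Over all measured genes 14.3% were higher and 10.5% lower, with a median of 0.17. However, 13 of the 211 members, 6.16% (3.32 to 10.3), held 83.0% of all G2/M UMIs. These 13 had a median of 38717 UMIs, against 7573 in the other members, 43.3 keratin UMIs per 10000, against 1.59, and 4.52 endothelial UMIs per 10000, against 19.6. The doublet caller Scrublet marked 5 of them. Without members over 20000 UMIs the median was -0.65, and without cells high in epithelial, mural or myeloid genes it was 0.21. Members with at least 30 G2/M UMIs per 10000 were 6.16% after 35 Gy, 3.86% (1.78 to 7.21) at fractionated day 7, 3.65% (1.90 to 6.29) at fractionated day 14 and 4.62% (1.71 to 9.78) in the control, with overlapping intervals.

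**Figure D5:**
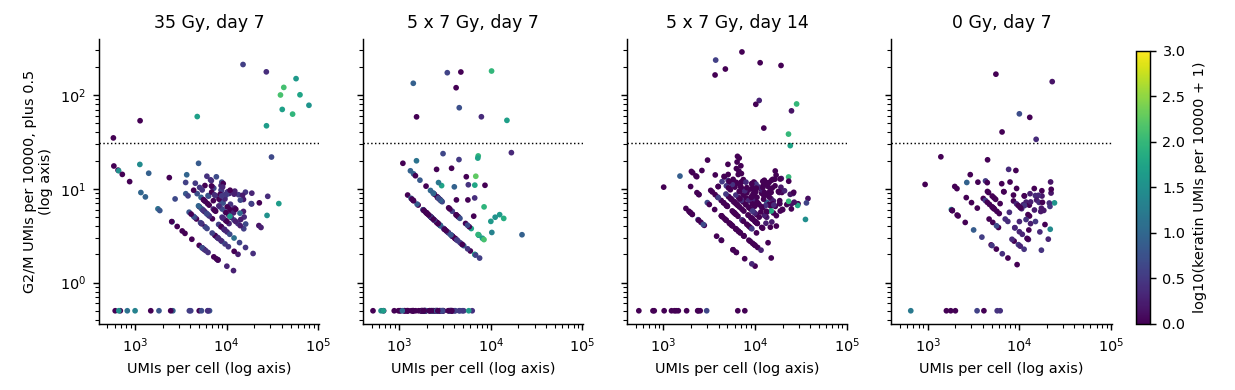
UMIs per cell and G2/M UMIs per 10000 in each venular cell of the 4 libraries, on log axes where labelled. In the 35 Gy library 13 cells with at least 30 G2/M UMIs per 10000 had a median of 38717 UMIs, against 7573 in the other members.

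Neutrophil marker RNA stood out in the 35 Gy library, while epithelial marker RNA was above the control in all irradiated libraries. S100a9, a neutrophil calprotectin subunit, was at 1747 CPM in venular cells after 35 Gy, 58.2 at fractionated day 7, 6.38 at fractionated day 14 and 2.52 in the control, and in barcodes with no endothelial UMI at 1861, 10.7, 23.9 and 6.06 CPM. Its partner S100a8, chosen after its values were seen, was in 46.9% of venular cells after 35 Gy, at 1076 CPM, against 103 CPM in capillary and 206 CPM in arterial cells, and had no UMI at fractionated day 14 or in the control. Of the 4 neutrophil markers, 3 were detected after 35 Gy, and Cxcr2 was at 0 in every library. The summed neutrophil markers were 2825, 113 and 6.38 CPM in the irradiated libraries and 2.52 CPM in the control. The 7 epithelial markers summed to 2951, 2527 and 1031 CPM against 365 CPM, and 8 macrophage and monocyte markers to 326, 178 and 283 CPM against 17.7 CPM. The 3 erythroid markers summed to 92.0, 27.9 and 87.8 CPM against 2817 CPM, and the 7 mural markers to 234, 66.7 and 912 CPM against 927 CPM. The T cell genes Cd3e and Cd3d were at 0 in all 4 libraries. The source of this marker RNA and its part in the venular differences were not tested.

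The differences named for the 35 Gy cells were also read without cells high in epithelial, mural or myeloid genes. The log2 ratios of 35 Gy to control were then 3.86 for Csf3, 1.49 for Sele, 3.67 for Slco2a1 and -2.20 for Icam1, against 3.74, 1.44, 3.54 and -2.29 in all members. For Prg4 the ratio was 4.56, against 5.38, and for S100a9 it was 6.11, against 9.44. At fractionated day 7 the log2 ratio of S100a9 was 2.56, against 4.53 in all members. S100a8 and S100a9 are among the myeloid genes by which cells were left out. The ratio of S100a9 was therefore bound to fall, and its fall is not read as showing the source of this RNA.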

How the data were processed

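Droplet single-cell RNA libraries (10x Genomics 3' chemistry) were made from 4 pools of dissociated rat esophagus, after cold storage, shipment, digestion with collagenase, DNase and trypsin, and dead cell removal, per the labels' protocols. The authors deposited unnormalised UMI counts for 32623 features, and Cell Ranger 5.0.0 is named, with rn7 and mRatBN7.2 as builds, per the submitters' processing notes. For the annotation release the sources used here give nothing. Features that share a symbol were summed to 30017 symbols.

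Members, gene lists and alternatives were chosen with earlier results of these data known. Of 790 listed symbols, 17 did not match a feature name. Venular cells, gated as described, gave summed counts of 2108389 UMIs in the 35 Gy library, 824765 and 3132331 in the fractionated day 7 and day 14 libraries and 1188695 in the control library. Levels are CPM of these sums. Ratios have exact conditional binomial 95% intervals, shares exact Clopper-Pearson ones, and where a library was at 0 a floor of 3 UMIs per library was used. The ratio step was tested on simulated counts. Doublets were kept in the main results, and Scrublet in scanpy 1.11.5, at an expected 0.8% per 1000 cells, served as an alternative. Named genes were the 6 higher and 6 lower with the largest fold against the control (3 each for other pairs), ranked by the interval bound nearest to 1, with at least 50 UMIs in the pair. They had to be at least as high in venular cells as in barcodes with no endothelial UMI of the same library, and up to 4 genes per list were added. Gate, mitochondrial, ribosomal protein and haemoglobin genes were left out of that ranking. Thinning to 1000 UMIs used 1 seeded draw and left out 10, 6, 3 and 2 shallower venular cells in the 35 Gy, fractionated day 7, fractionated day 14 and control libraries. Unthinned, the shares of cells with a Sele UMI were 54.5%, 29.2%, 30.7% and 34.6%, and with a Csf3 UMI 37.9%, 2.15%, 6.99% and 11.5%. Promoter letters are from RefSeq (GRCr8) and no coordinate of the count files was used. Scripts ran in Python 3.11.15 with numpy 2.4.6, scipy 1.17.1 and pandas 2.3.3.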

Additional observations from a re-analysis of the deposited data

How the results depend on the processing

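The share of venular cells depended on the gate. With Vwf alone in place of Selp and Vwf, venular cells were 1.19%, 2.18%, 2.05% and 0.55% of kept barcodes, and 12.6%, 20.1%, 7.85% and 4.71% of blood endothelial barcodes, in the 35 Gy, fractionated day 7, fractionated day 14 and control libraries. With at least 3 UMIs of Selp and Vwf, the shares were 1.84% and 16.9% at fractionated day 7 and 2.92% and 11.2% at fractionated day 14. Without cells high in epithelial, mural or myeloid genes, they were 1.71% of kept barcodes after 35 Gy and 2.22% at fractionated day 7, and 26.6% of blood endothelial barcodes after 35 Gy, 14.5% at fractionated day 14 and 11.7% in the control. Counts of genes past 2-fold depended on the minimum of UMIs, which sets how many genes are measured. At 200 UMIs they were 308 higher and 261 lower after 35 Gy, 156 and 225 at fractionated day 7 and 103 and 51 at fractionated day 14, all against the control, 140 and 307 for fractionated day 7 against 35 Gy, and 371 and 176 for fractionated day 14 against day 7. At 1 UMI they were 1931 and 2902, 3248 and 2003, 1210 and 2567, 3642 and 1305, and 1480 and 4123 in that order. With Vwf alone, 351 genes were higher at fractionated day 7 than after 35 Gy, against 562, and the cause was not tested. Without members over 20000 UMIs, a setting added after the data were seen, the median log2 ratio of G2/M genes was -0.65 after 35 Gy against the control and 0.98 at fractionated day 7 against 35 Gy, against 1.62 and -1.33 in all members. Of the other list medians 1172 kept their value within counting error and 76 moved, and of the log2 ratios of named genes 4195 did and 334 moved. No paired analysis was possible because each group is 1 pooled library, and for the same reason no replicate could be left out. The summed depth of 824765 UMIs at fractionated day 7 limits low genes there.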

Other observations

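The sialomucin Emcn, which covers the luminal surface of veins and capillaries, was at 410 CPM after 35 Gy, 591 at fractionated day 7, 756 at fractionated day 14 and 836 in the control, and 2.04-fold (1.86 to 2.23) lower after 35 Gy than in the control. Rnd1, a small GTPase of the cytoskeleton, was at 264, 32.7 and 584 CPM in the irradiated libraries in that order and 950 CPM in the control. Cavin1, a coat protein of caveolae, was at 357 CPM after 35 Gy, against 973 CPM in the control, and at 1132 CPM at fractionated day 7. Of the junction, fenestra and permeability genes, 0 were at least 2-fold higher and 5 (20.8%) lower of 24 after 35 Gy, beside 14.3% and 10.5% of all genes. At fractionated day 7 it was 3 (13%) and 3 (13%) of 23, near the 12% and 11.3% of all genes, and at fractionated day 14 it was 0 and 1 (4.17%) of 24, beside 5.52% and 1.93%.

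Of 16 measured genes of lipid handling and cholesterol, 3 (18.8%) were at least 2-fold higher and 7 (43.8%) lower at fractionated day 7 than in the control, with a median log2 ratio of -0.76, beside 12%, 11.3% and 0.08 over all genes. Against that direction, the lipoprotein receptor Scarb1 was at 687 CPM at fractionated day 7, against 194 after 35 Gy, 250 at fractionated day 14 and 373 in the control, and the cholesterol exporter Abca1 at 347 CPM, against 154, 95.1 and 137 CPM. Abca1 was highest at fractionated day 7 in capillary and arterial cells as well, at 323.8 and 262 CPM. Aplnr, the apelin receptor of veins, was at 78.7 CPM after 35 Gy, 269 at fractionated day 7, 171 at fractionated day 14 and 188 in the control. It too was highest at fractionated day 7 in capillary and arterial cells, at 356.2 and 184.9 CPM. These genes were chosen after their values were seen.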
